A study of Mus musculus with 9 samples.

Results

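The comparison of acute MPTP with saline in the mouse striatum rested on 6 of the 9 arrays of the series, 3 arrays a group. Control mice were injected with saline 4 times, 2 h apart, and their striata were taken 1 week later. Acute mice received MPTP (listed as free base MPTP HCl) at 20 mg/kg by the intraperitoneal route, also 4 times and 2 h apart, 80 mg/kg in total, and were sampled at the same 1 week. The 3 remaining arrays, from mice 8 weeks after 20 daily doses of 4 mg/kg, entered the estimate of the spread, the filter on low values and the mean on which genes were centred, and no group mean compared here. Strain, genotype, age and sex are not given in the sources used here, nor whether an array holds 1 animal or a pool, so each p-value measures the spread between arrays, which may be technical in part. The arrays were chosen by their titles. The probe sets described were the 21780 of 28815 that carry exactly 1 gene symbol, and 16335 of these (14880 genes) lay above a filter on low values and were tested. Each value is a log2 intensity, and each difference is acute minus control, so that 1 unit is a change of 2-fold.

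MPTP is turned into the toxic ion MPP+ by monoamine oxidase B, mainly in glia, and MPP+ is carried into dopamine terminals by the dopamine transporter, where it blocks mitochondrial complex I. The cell bodies of those neurons lie in the midbrain, so striatal RNA comes mostly from the cells the terminals contact: spiny projection neurons of the direct and indirect pathways, interneurons, glia and vessels. Immediate early genes are switched on within minutes of neuronal activity, hormones or injury and switched off again, and in spiny neurons several of them answer to dopamine and cortical input.

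No probe set passed an adjusted p of 0.05 (limma, Benjamini-Hochberg over all 16335; smallest 0.23), so 0% were called. An unadjusted p under 0.05 was found for 139 probe sets, 0.851% of those tested and fewer than the 817 that the threshold alone would give. Of these, 68 (0.416%) were higher after acute MPTP and 71 (0.435%) were lower. The larger differences were mostly downward. At least 1.5-fold differences numbered 5 higher and 33 lower, and those of at least 2-fold 0 higher and 4 lower: Glp1r (difference -1.35 ± 0.82, standard error), Nr4a1 (-1.31 ± 0.16), Calb2 (-1.25 ± 0.94) and Tac2 (-1.06 ± 0.83). Only Nr4a1 of these 4 had an unadjusted p under 0.05. Across all probe sets 51.5% were higher and the median difference was 0.0036. The standard error had a median of 0.1245 and the 95% interval a median half-width of 0.2809, which limits what 3 arrays a group can show. The 139 became 398 without control 1, 405 without control 2, 57 without control 3, 86 without acute 1, 72 without acute 2 and 346 without acute 3. The 10 probe sets that joined such a p to a 1.5-fold difference (1 higher, 9 lower) became 61 without control 1, 57 without control 2, 4 without control 3, 5 without acute 1 and 52 without acute 3.

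Arrays with the same number in their titles tended to deviate alike. Deviations from the group mean correlated positively between same-numbered control and acute arrays (r from 0.189 to 0.674 across probe sets, 3 pairs). Between different numbers r ran from -0.609 to 0.008 (6 pairs). Part of that contrast is fixed in advance, because the deviations within a group sum to 0. Over all 3 groups the ranges overlapped, 0.157 to 0.674 for the same number (9 pairs) and -0.609 to 0.184 for different numbers (18 pairs). With the replicate number as a block, 687 probe sets (4.21%) had an unadjusted p under 0.05, 327 higher (2.00%) and 360 lower (2.20%), and again none passed after adjustment (limma, smallest adjusted p 0.188). Same-number differences shared their sign in all 3 pairs for 2182 probe sets in the higher direction (13.4%) and 2012 in the lower (12.3%). All 3 acute values lay outside the range of the 3 control values, with no overlap, for 581 probe sets (3.56%), 337 higher (2.06%) and 244 lower (1.49%). Of those without overlap, 7 higher and 17 lower differed by at least 1.3-fold, and 0 higher and 8 lower by at least 1.5-fold. These shares are the background for the gene groups that follow.

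**Figure D1:**
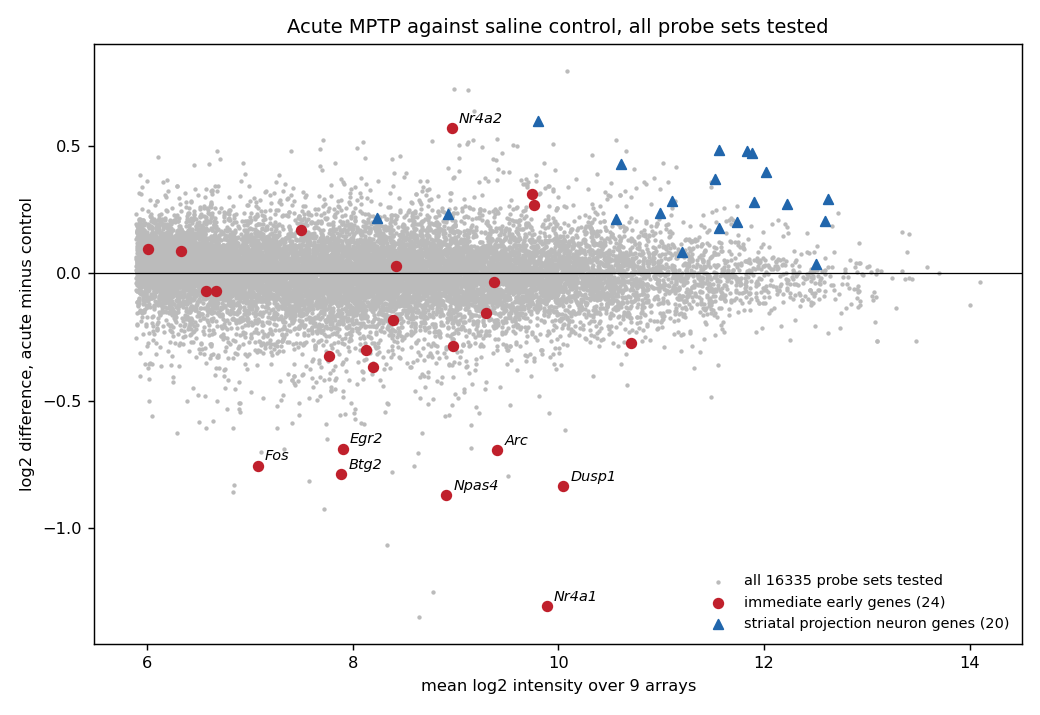
Difference between acute MPTP and control (log2, vertical axis) against the mean log2 intensity over 9 arrays (horizontal axis) for the 16335 probe sets tested, with 24 immediate early genes in red and 20 genes of striatal projection neurons in blue. Nr4a1 lies at -1.31 among the lowest points, 17 of the 24 red points are below 0 and all 20 blue points are above it.

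Immediate early genes were the list with the most members lower after acute MPTP without overlap between groups, 10 of 24. The lists were chosen with earlier results of these data known, so this count is a description and not an independent test. Thalamic, septal and hypothalamic neuron genes had a lower median (-0.32, 20 of 24 lower) and ependymal genes were lower in 10 of 10 (median -0.09), with 0 members free of overlap in either list. Of the 25 on the list, Ier2 lay below the filter. Of the 24 tested, 17 had a lower mean in the acute arrays and 7 a higher one, and the median was -0.23, against 7105 lower, 7774 higher and a median of 0.005 over all 14880 genes. An unadjusted p under 0.05 (limma) was reached by 7 of the 24, all lower (Nr4a1, Arc, Fos, Egr2, Btg2, Dusp1 and Junb). The acute and control arrays did not overlap for 10, again all lower: the same 7 with Egr1, Egr4 and Fosb. Of all probe sets 0.435% were lower at that p and 1.49% were lower without overlap. None of the 24 passed after adjustment over all probe sets. By pair of same-numbered arrays the median was -0.21, -0.08 and -0.32, so the second pair showed the smallest shift.

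Nr4a1, an orphan nuclear receptor and transcription factor, ranked 1 of all probe sets by p. Its values were 9.99, 9.94 and 9.96 on the control arrays and 8.57, 8.69 and 8.71 on the acute arrays. The control values lay within a few hundredths of each other and each acute value was far below all of them. The difference was -1.31 ± 0.16, a 2.47-fold lower level, with an adjusted p of 0.23 in the limma fit on 9 arrays. It was the single probe set past the threshold when the fit held only the 6 control and acute arrays (limma, adjusted p 0.014) or left out chronic 1 (limma, 0.00348), with the same difference each time. With the replicate block the limma adjusted p was 0.188 on 9 arrays and 0.068 on 6, so the call on 6 arrays is lost under the block.

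Arc, which encodes a cytoskeletal protein of dendrites that takes part in removing glutamate receptors from synapses, ranked 2. It read 9.69, 9.38 and 9.35 in controls and 8.71, 8.80 and 8.84 after acute MPTP, a difference of -0.69 ± 0.12 with no overlap. Fos, a subunit of the AP-1 transcription factor, ranked 8, with 7.23, 7.04 and 7.66 against 6.45, 6.52 and 6.70 (-0.75 ± 0.23). The highest acute value of Fos remained below the lowest control value. Egr2, a zinc finger transcription factor, stood at 7.75, 7.74 and 7.90 in controls and at 7.06, 7.17 and 7.10 in acute arrays (-0.69 ± 0.24). Its groups were far apart compared with the spread inside each. The limma adjusted p was 1 for Arc, Fos and Egr2.

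Btg2 and Dusp1 showed the same direction with wider spread. Btg2, an antiproliferative regulator of mRNA decay, read 8.35, 7.79 and 8.41 in controls and 7.08, 7.60 and 7.51 in acute arrays (-0.79 ± 0.27). Control 2 and acute 2 nearly met, and the groups stayed separate. Dusp1, the phosphatase that switches off MAP kinases, read 10.10, 10.09 and 10.37 against 8.67, 9.52 and 9.86 (-0.84 ± 0.33). Acute 1 was the lowest by a wide margin. Junb, another AP-1 subunit, was lower by less, from 7.85, 7.85 and 7.67 to 7.49, 7.57 and 7.34 (-0.32 ± 0.13), and every acute value was below every control value.

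**Figure D2:**
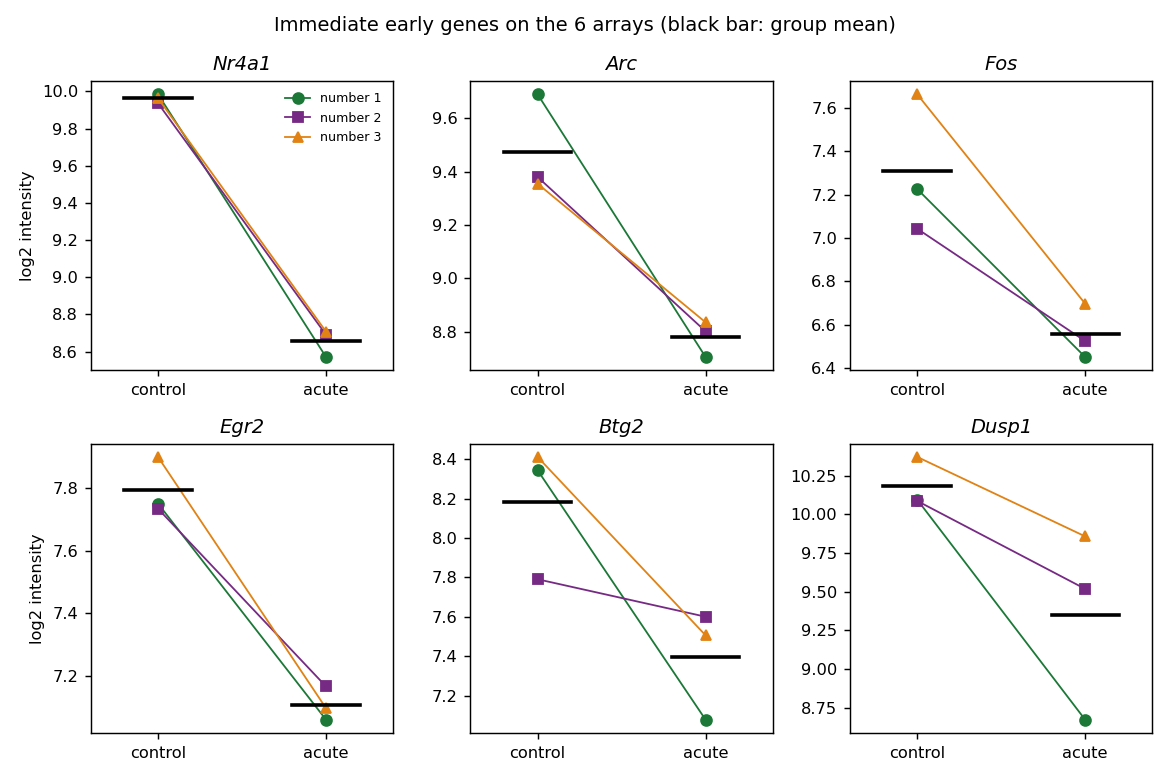
Log2 intensity (vertical axis, range set for each gene) of 6 immediate early genes on the control and acute arrays. Lines join arrays with the same number and black bars are group means. In each panel all 3 acute points lie below all 3 control points, with the widest gap for Nr4a1 (lowest control 9.94, highest acute 8.71).

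The other members were not uniform. Egr1, a relative of Egr2, stood at 10.59, 10.59 and 10.71 in controls and 10.45, 10.35 and 10.28 in acute arrays (-0.27 ± 0.17), a small separation without overlap. Fosb differed by -0.37 ± 0.24 and Egr4 by -0.18 ± 0.17, also without overlap. Npas4, a transcription factor induced by calcium entry in neurons, had the second largest difference in the group (-0.87 ± 0.49), but its values were 9.13, 9.12 and 8.79 against 6.86, 8.39 and 9.18. Acute 3 was above all controls, and without the 3 arrays high in cortex genes the difference was 0.23. Nr4a2, the relative of Nr4a1 that dopamine neurons also need, read 10.11, 8.66 and 7.90 in controls and 10.68, 10.76 and 6.94 in acute arrays (0.57 ± 0.99). It spanned several log2 units inside each group. Without those 3 arrays, again with acute 3 as the single acute array, its difference was -1.34. Egr3 went the other way from Egr2, with 9.29, 9.73 and 9.24 in controls and 9.79, 9.90 and 9.50 in acute arrays (0.31 ± 0.19). Egr3 was higher in all 3 pairs and was the single member with an unadjusted p under 0.05 in the higher direction under the block (limma, 0.0274). Homer1, a synaptic scaffold, differed by 0.27 ± 0.28 and was likewise higher in all 3 pairs. Of the 24, 11 were lower in all 3 pairs and 4 higher, beside 12.3% and 13.4% of all probe sets.

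The dissections differed between arrays in genes of neighbouring tissue, and these are given beside the group as measured. The mean of 15 cortical neuron genes, each centred on its mean over 9 arrays, was 0.81, -0.32 and -0.19 on control arrays 1 to 3 and 0.51, 0.70 and -0.39 on the acute arrays. Of its members, Slc17a7, a vesicular glutamate transporter of cortex, read 12.27, 9.49 and 8.72 against 11.75, 12.28 and 8.84, and Tbr1, a cortical transcription factor, 9.89, 7.06 and 7.08 against 9.12, 9.65 and 6.47. The mean of 13 choroid plexus genes was highest on control 3 (0.82) and acute 3 (1.55), where Ttr, the transthyretin gene, reached 12.56 and 13.37, and between -0.61 and -0.24 elsewhere. Genes of thalamic, septal and hypothalamic neurons were also highest on control 3 (1.17) and acute 3 (0.58). With cortical and choroid plexus means as covariates the median of the immediate early genes was -0.28, and 16 of 24 were lower, 7 of them with an unadjusted p under 0.05. Without control 1, acute 1 and acute 2, high in cortex genes, it was -0.34 with 18 lower, from acute 3 as the single acute array. Without control 3 and acute 3, high in choroid plexus genes, it was -0.12 with 16 lower and 5 at that p, and without acute 3 alone it was -0.13. The 7 became 4 without control 1, 4 without control 3, 5 without acute 1 and 3 without both arrays numbered 1.

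**Figure D3:**
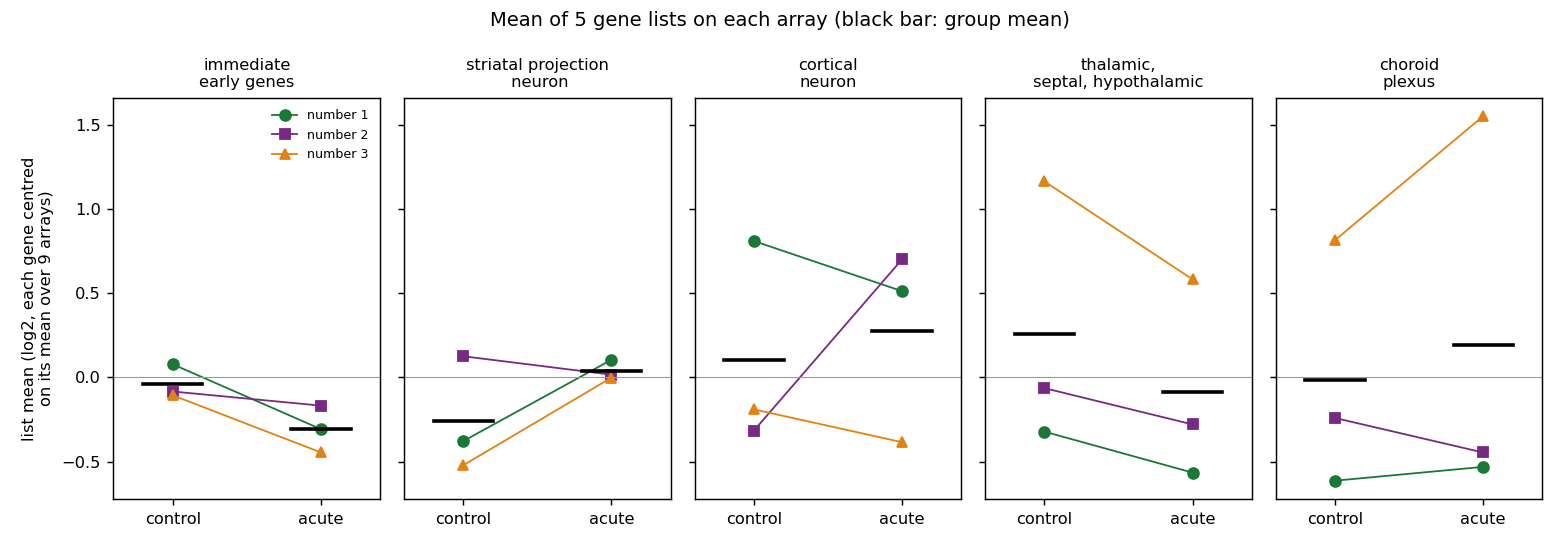
Mean of 5 gene lists on each control and acute array (vertical axis, log2, each gene centred on its mean over 9 arrays), with lines between same-numbered arrays and black bars for group means. The immediate early gene mean is lower on the acute array of every pair (0.08 to -0.31, -0.08 to -0.17 and -0.11 to -0.45). Means of the neighbouring tissue lists vary more between numbers than between groups. Within number 2, however, the cortical neuron mean goes from -0.32 on the control to 0.70 on the acute array.

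The promoters of Nr4a1, Fos, Btg2 and Dusp1, some of the members lower without overlap, are shown. TGACGT, the core of the cyclic AMP response element (CRE), lies in those of Fos, Btg2 and Dusp1. It is absent from that of Nr4a1, where a variant was marked after the sequence had been read. Junb, also lower without overlap, held neither TGACGT nor that variant and is not shown. Sequences come from RefSeq (assembly GRCm38.p6, 5′ to 3′ on the gene's strand) and cover the 250 bases before the annotated start: chr15:101266596-101266845 on the plus strand, chr12:85473640-85473889 (plus, Fos), chr1:134079156-134079405 (minus, Btg2) and chr17:26508473-26508722 (minus, Dusp1). Capitals mark TGACGT, alone or within the full palindrome TGACGTCA, and in Nr4a1 the variant TGCGTCA.

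Nr4a1: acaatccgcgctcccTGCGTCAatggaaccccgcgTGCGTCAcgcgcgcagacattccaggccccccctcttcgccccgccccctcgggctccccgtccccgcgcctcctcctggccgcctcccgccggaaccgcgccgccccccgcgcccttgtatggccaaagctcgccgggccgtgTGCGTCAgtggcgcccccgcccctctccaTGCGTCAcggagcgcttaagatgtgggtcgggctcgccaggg

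Fos: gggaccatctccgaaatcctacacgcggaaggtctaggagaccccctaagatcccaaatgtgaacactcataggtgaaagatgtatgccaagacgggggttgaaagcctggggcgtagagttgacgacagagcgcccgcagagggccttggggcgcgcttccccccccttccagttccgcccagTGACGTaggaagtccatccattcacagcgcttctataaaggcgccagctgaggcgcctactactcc

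Btg2: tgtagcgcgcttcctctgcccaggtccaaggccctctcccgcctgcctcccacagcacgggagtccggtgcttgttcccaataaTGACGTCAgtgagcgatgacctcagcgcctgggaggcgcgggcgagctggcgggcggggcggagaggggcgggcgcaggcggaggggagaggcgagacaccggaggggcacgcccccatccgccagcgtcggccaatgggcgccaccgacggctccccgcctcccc

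Dusp1: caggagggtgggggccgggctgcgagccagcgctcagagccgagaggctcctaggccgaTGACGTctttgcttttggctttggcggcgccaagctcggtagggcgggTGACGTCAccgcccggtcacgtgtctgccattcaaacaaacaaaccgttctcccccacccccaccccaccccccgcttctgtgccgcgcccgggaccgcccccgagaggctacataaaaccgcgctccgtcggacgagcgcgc

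The table held promoters of 20 of the 24 members tested; Fosl1, Egr1, Egr3 and Arc are named only. Searched on both strands, TGACGT was in 10 of the 20, namely Fos, Egr2, Egr4, Nr4a3, Npas4, Btg2, Dusp1, Homer1, Atf3 and Maff, against 6.47% of 32851 windows of that length and 10.6% of 11792 tested genes. It was in 5 of the 8 with a sequence among the 10 lower without overlap (Fos, Egr2, Egr4, Btg2 and Dusp1), and also in Homer1, which was higher in all 3 pairs. The full TGACGTCA, which contains the core, was in 3 of the 20 (Btg2, Dusp1 and Maff) against 1.55% of windows and 2.83% of tested genes. The CArG box of serum response factor was in 1 (Egr2; 1.47% of windows, 1.38% of tested genes). The NBRE that Nr4a receptors bind, AAAGGTCA, was in 0 (1.34% and 1.16%) and the AP-1 site in 0 (4.46% and 4.03%). TGCGTCA, searched for after the sequences had been read, was in Fosb and Nr4a1 (4 copies in Nr4a1) against 1.75% of windows and 3.09% of tested genes. Of 15 projection neuron genes with a sequence, 1 held TGACGT. A match is a description of letters in this window.

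A further list, drawn up as slower activity-regulated genes, showed no common direction. The speed of response of its members was not tested, so the list gives no contrast of fast with slow genes. Of 26 tested, 15 were higher and 11 lower (median 0.04). Inhba, a subunit of activin, read 7.81, 7.89 and 7.53 in controls and 8.37, 8.14 and 8.08 in acute arrays (0.45 ± 0.22), higher without overlap. Its direction was opposite to that of Nr4a1 and Fos. Bdnf, the neurotrophin, differed by 0.21 ± 0.13. Rgs2, a brake on G protein signalling, was lower without overlap by -0.19 ± 0.10. Trib1 differed by -0.27 ± 0.12 and Sik1, a kinase that restrains CREB coactivators, by -0.56 ± 0.36. In this list 0 of 26 had an unadjusted p under 0.05 in the limma fit on 9 arrays, and with the block 1 was higher and 1 lower.

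Glucocorticoid response genes leaned the same way as the immediate early genes. Of 19 tested, 15 lay below 0 and 4 above it (median -0.13). An unadjusted p under 0.05 (limma) was reached by 3, all lower: Dusp1, which is on both lists, Nfkbia and Tsc22d3. Of all probe sets 0.435% were lower at that p. Nfkbia, the inhibitor of NF-kappa-B, read 8.33, 8.33 and 8.69 in controls and 8.18, 8.23 and 7.97 in acute arrays (-0.33 ± 0.14), without overlap. Tsc22d3, the glucocorticoid-induced leucine zipper, read 8.44, 8.80 and 8.93 against 8.28, 8.21 and 8.63 (-0.35 ± 0.15), and acute 3 overlapped with the controls. None passed after adjustment.

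Transcripts of dopamine neurons and of MPTP handling were low to moderate in the striatum and mostly somewhat lower in the acute arrays. Of 23 genes listed, 18 were tested, 13 lower and 5 higher (median -0.08), and 7 were lower in all 3 pairs (12.3% of all probe sets were). In bulk tissue fewer cells or terminals and less RNA in each cannot be told apart. Slc6a3, the dopamine transporter that admits MPP+, read 6.62, 6.58 and 6.74 in controls and 6.29, 6.53 and 6.29 in acute arrays. Acute 2 almost reached control 2, and the groups did not overlap. The difference was -0.27 ± 0.10, rank 40 by p (limma, unadjusted 0.0253, with the block 0.0186, adjusted 1). In the fit without the block Slc6a3 was the single member of this list with an unadjusted p under 0.05, and it was the single one without overlap. Under the block 3 members had such a p, Slc6a3 and Maob lower and Pitx3 higher. Its values lay below the medians of the arrays, which were between 6.85 and 6.90.

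Th, the rate-limiting enzyme of dopamine synthesis, read 7.14, 8.51 and 8.28 in controls and 7.34, 7.94 and 8.02 in acute arrays. It was lower in pairs 2 and 3 and higher in pair 1, and the groups overlapped (-0.21 ± 0.39, 0.02 with the tissue covariates). Slc18a2, the vesicular transporter that sequesters dopamine and MPP+, differed by -0.29 ± 0.27, and Ddc, which makes dopamine from L-DOPA, by -0.27 ± 0.23. Both overlapped between groups. Maob, the enzyme that converts MPTP, read 9.07, 9.12 and 9.72 against 8.92, 8.95 and 9.30 (-0.25 ± 0.18). It was lower in each pair, with an unadjusted p of 0.0495 under the block (limma). Ret, the receptor for GDNF-family factors, was also lower in each pair (-0.56 ± 0.50), with values from 7.17 to 9.02 in controls. Pitx3, a transcription factor of dopamine neurons, went the other way, with 6.64, 6.58 and 6.40 against 6.81, 6.84 and 6.62 (0.22 ± 0.13). It was higher in each pair, with an unadjusted p of 0.0217 under the block (limma). None of these differences passed after adjustment (limma, with or without the block).

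**Figure D4:**
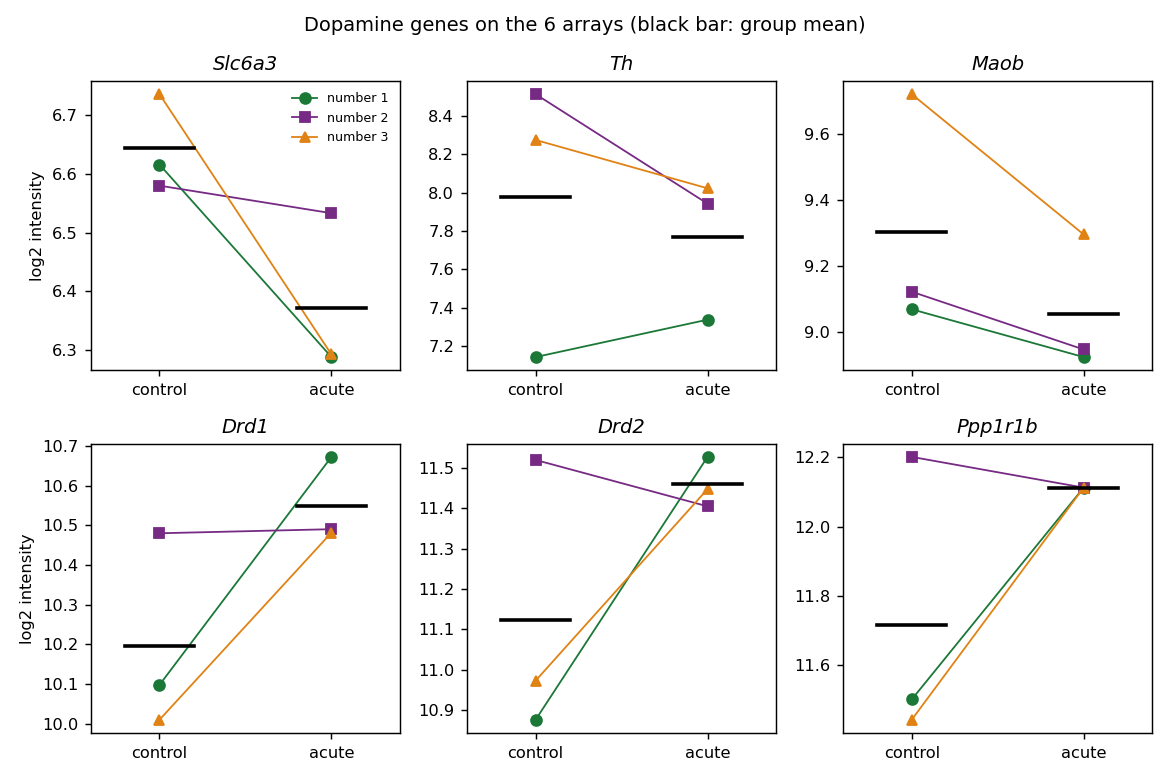
Log2 intensity (vertical axis, range set for each gene) of 3 dopamine neuron or MPTP handling genes and 3 genes of the neurons that receive dopamine, on control and acute arrays. Lines join same-numbered arrays and black bars are group means. Slc6a3 is lower in every pair and Th in 2 of 3, while for Drd1, Drd2 and Ppp1r1b control 1 and control 3 are low and control 2 is level with the acute arrays.

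Genes of striatal projection neurons were higher in the acute arrays as a group, and most of that difference lay in the control arrays numbered 1 and 3. All 20 pan striatal genes tested were higher, with a median of 0.28, and 2 had an unadjusted p under 0.05 (limma), beside 0.416% of all probe sets. With the block it was 6 of 20, all higher, beside 2.00% of all probe sets. None was free of overlap, and 2 of 20 were higher in all 3 pairs, against 13.4% of all probe sets. By pair the median was 0.49, -0.10 and 0.49. The list mean was -0.38, 0.13 and -0.52 on the controls and 0.10, 0.02 and 0.00 on the acute arrays. Control 2 was thus level with the acute arrays. Without control 2 the median was 0.45 and 16 of 20 had an unadjusted p under 0.05, without both arrays numbered 2 it was 0.44 with 15, and without control 3 it was 0.17 with 0. With the cortical and choroid plexus means as covariates the median was 0.44 and 16 had such a p. The 2 of 20 became 0 without control 1, control 3, acute 1, acute 2 or chronic 2, and also in the limma fit on 6 arrays. Control 1, acute 1 and acute 2 were high in cortical genes, and control 3 and acute 3 in choroid plexus and thalamic genes. The part of neighbouring tissue in the difference was not tested beyond these settings.

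Ppp1r1b, which encodes the dopamine signalling protein DARPP-32, read 11.50, 12.20 and 11.44 in controls and 12.11 on all 3 acute arrays (0.40 ± 0.18). The acute values were identical in the deposited data, as they were for 99 probe sets tested, and 121 were identical on all 3 controls. Rasd2, a striatal GTPase, differed by 0.47 ± 0.20, Sh3rf2 by 0.60 ± 0.26, Rgs9, a regulator of dopamine receptor signalling, by 0.48 ± 0.22 and Bcl11b, a transcription factor of these neurons, by 0.43 ± 0.20. For each, control 2 lay within or close to the acute range.

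Direct and indirect pathway markers leaned upward too. Of 9 direct pathway genes 8 were higher (median 0.20), and of 9 indirect pathway genes 7 (median 0.07). Drd1, the receptor of direct pathway neurons, read 10.10, 10.48 and 10.01 against 10.67, 10.49 and 10.48 (0.35 ± 0.17), with control 2 just below the lowest acute value. Drd2, the receptor of indirect pathway neurons and of dopamine terminals, read 10.88, 11.52 and 10.97 against 11.53, 11.40 and 11.45 (0.34 ± 0.16), with overlap. Sfxn1 was the exception among direct pathway genes, lower without overlap (-0.22 ± 0.11). The neuropeptide genes that dopamine loss is known to shift in opposite directions showed little difference: 0.08 ± 0.10 for Penk (enkephalin), 0.20 ± 0.25 for Tac1 (substance P) and 0.05 ± 0.29 for Pdyn (dynorphin). Among interneuron genes, Chat of cholinergic cells differed by 0.23 ± 0.21, and Npy by 0.30 ± 0.15, higher in all 3 pairs. Calb2, which is also on the interneuron list, and Slc17a6 differed by -1.25 ± 0.94 and -0.92 ± 1.05. They are markers of thalamic and related neurons, whose list mean was highest on the arrays numbered 3. Both were lower in all 3 pairs, as were 12.3% of all probe sets. Under the block the unadjusted p was 0.0849 for Calb2 and 0.00324 for Slc17a6 (limma, adjusted 0.98 for each). Slc17a6 read 7.19, 7.66 and 10.59 against 6.68, 6.54 and 9.43.

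Medians of the astrocyte and microglial lists were small at 1 week, while 95% intervals of single genes were wide (Gfap -0.39 to 0.61, Vim -0.16 to 0.70). Of 15 astrocyte genes 8 were higher (median 0.02), and of 18 reactive astrocyte genes 13 (median 0.04). Gfap, the intermediate filament of reactive astrocytes, read 8.44, 8.96 and 9.19 in controls and 8.86, 8.78 and 9.30 in acute arrays (0.11 ± 0.22). The groups overlapped throughout. Vim, a second filament gene, differed by 0.27 ± 0.19. Of 19 microglial genes 17 were higher, with a median of 0.09 and a median by pair of 0.41, -0.10 and 0.09. Control 1 was the lowest array for this list (mean -0.31) and also the highest in cortical genes. Aif1, which encodes IBA1, differed by 0.13 ± 0.10, Fcrls by 0.30 ± 0.17 and P2ry13, a purinergic receptor, by 0.25 ± 0.16, the last without overlap. Of 21 genes of activated microglia listed, 11 were tested. Il1b, Tnf, Itgax, Clec7a, Cst7 and Ccl2 were among those below the filter. Of the 11, 8 were higher and 2 had an unadjusted p under 0.05 (limma), both higher, beside 0.416% of all probe sets. Lpl, lipoprotein lipase, read 7.79, 8.52 and 7.82 against 8.66, 8.46 and 8.36 (0.45 ± 0.19). H2-Eb1, an MHC class II chain, read 6.48, 6.37 and 6.38 against 6.60, 6.66 and 6.53 (0.19 ± 0.08). H2-Eb1 was separate between groups, with values below the medians of the arrays. Lpl was not separate, and its control 2 lay within the acute range.

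Of 21 endothelial and pericyte genes 18 were higher (median 0.07). Cldn5, the tight junction claudin of brain vessels, read 9.62, 9.34 and 9.16 in controls and 10.07, 9.68 and 9.60 in acute arrays (0.41 ± 0.19). It was higher in every pair by a similar amount, with an unadjusted p of 0.000686 under the block (limma, adjusted 0.98) and 0.0608 without it. Myelin and oligodendrocyte genes were 11 higher of 15 (median 0.05).

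Stress and mitochondrial lists stayed near the median of all genes. Of 22 genes of the unfolded protein response 15 were higher (median 0.05), 8 of them in all 3 pairs, and 0 were lower in all 3. Of all probe sets, 13.4% were higher and 12.3% lower in all 3 pairs. Hspa5, the chaperone BiP, read 10.84, 10.87 and 10.95 in controls and 11.08, 10.97 and 11.09 in acute arrays (0.16 ± 0.08), and Pdia6, a disulphide isomerase, differed by 0.18 ± 0.10. Both were higher without overlap and by little. Respiratory complex I, the target of MPP+, had 21 of 35 subunits higher and 14 lower (median 0.03). In all 3 pairs 10 of the 35 were higher and 1 was lower. Antioxidant and NRF2 target genes had 11 higher and 12 lower (median -0.0095), apoptosis and p53 targets 7 and 7, and interferon response genes 13 and 3 (median 0.05). In these last 4 lists 0 genes had an unadjusted p under 0.05 in limma, with or without the block. Neurotrophic factors and their receptors had 11 higher and 9 lower (median 0.03).

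Neurexophilins, secreted ligands of neurexins at synapses, did not differ beyond their error. Nxph3 read 8.08, 6.84 and 6.68 in controls and 7.83, 8.06 and 6.63 in acute arrays (0.31 ± 0.42). High and low arrays were in both groups, and the high ones were the 3 arrays high in cortical genes. Without those 3, which leaves acute 3 as the single acute array, the difference was -0.13. Nxph1 differed by -0.21 ± 0.25 and Nxph4 by -0.02 ± 0.14, and Nxph2 lay below the filter.

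**Figure D5:**
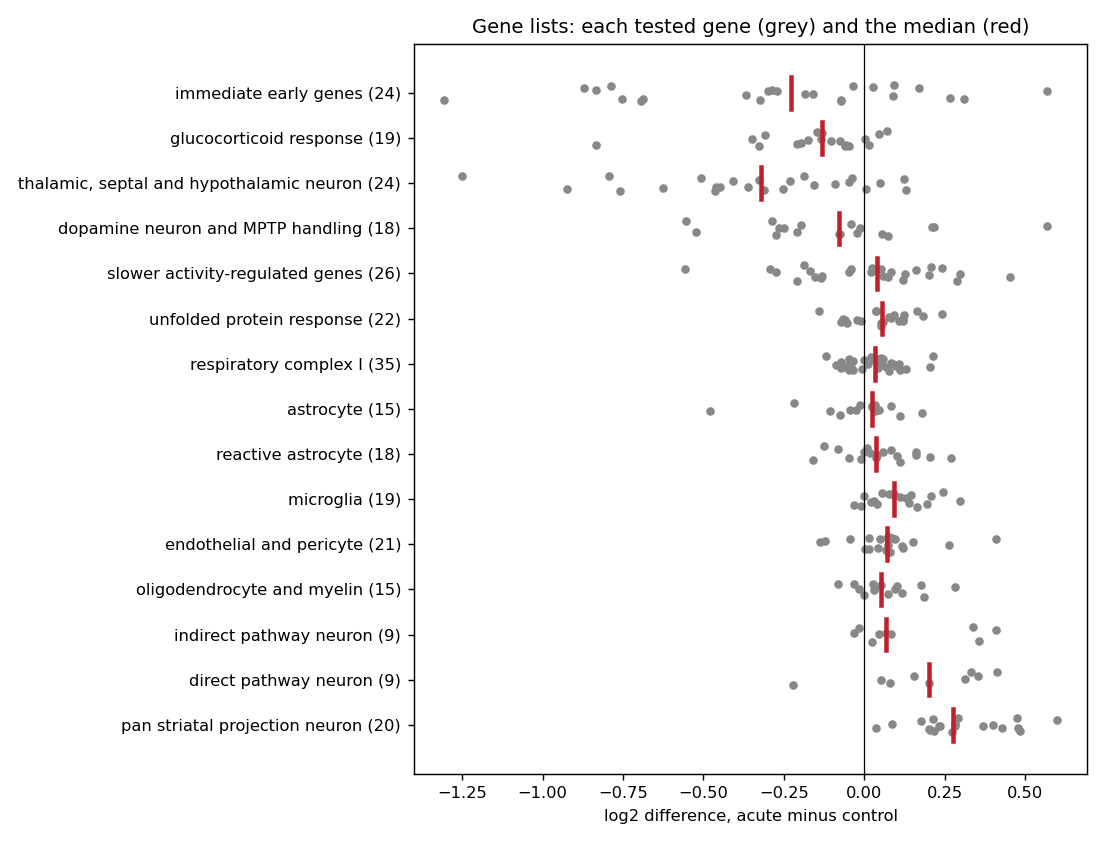
Difference between acute MPTP and control (log2, horizontal axis) of each tested gene (grey) in 15 gene lists, with the median of each list in red and the number of genes tested in brackets. Medians run from -0.32 for thalamic, septal and hypothalamic neurons and -0.23 for immediate early genes to 0.28 for pan striatal projection neurons.

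Outside the lists, the probe sets separated without overlap by at least 1.3-fold and with the smallest p included few in the higher direction. Kcnj14, an inward rectifier potassium channel, read 5.73, 5.91 and 5.78 in controls and 6.36, 6.26 and 6.17 in acute arrays (0.46 ± 0.12). Its control mean, 5.81, lay below the filter of 5.89, so it was tested because of its higher values on other arrays. Arpc1b, a subunit of the actin-nucleating Arp2/3 complex, read 8.96, 9.19 and 9.46 against 9.62, 9.57 and 10.01 (0.53 ± 0.18), higher by a similar amount in each pair, and a second probe set differed by 0.31. Hamp2, a hepcidin gene, differed by 0.48 ± 0.16, Rasgef1b by 0.49 ± 0.24 and Coch by 0.52 ± 0.32. Zfp951 (0.38 ± 0.14), Pate11 (0.42 ± 0.14) and Cited4 (0.43 ± 0.16) were higher in all 3 pairs. The control mean of Zfp951, 5.70, was likewise below the filter.

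In the lower direction, besides the immediate early genes, Nexmif, a neuronal protein gene on the X chromosome, read 7.63, 7.86 and 8.11 in controls and 7.17, 7.47 and 7.61 in acute arrays (-0.45 ± 0.15). Every pair differed by nearly the same amount. Aff2 differed by -0.40 ± 0.14 and Nmbr, the neuromedin B receptor, by -0.70 ± 0.27, both without overlap. Lower in all 3 pairs with some of the smallest p under the block were Adcy8, a calcium-stimulated adenylyl cyclase (-0.59 ± 0.31), Tiparp (-0.42 ± 0.18), Fgf18, a fibroblast growth factor (-0.42 ± 0.18), and 1 probe set of Polr3e (-0.52 ± 0.20), whose second probe set differed by 0.03. None of these passed after adjustment in limma with or without the block.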

How the data were processed

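Striatal RNA was hybridised to 9 single-colour Affymetrix arrays after cDNA labelling with the Ambion WT Expression kit, per the labels' protocols. The deposited values are log2 intensities of probe sets, a scale read from the values. Background correction, normalization and summary are not given in the sources used here, so values were used as deposited. Symbols came from the platform annotation; 21689 of 21780 gene identifiers were found in the RefSeq table. The filter was the 25th percentile of the mean over 9 arrays (log2 5.89).

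limma 3.58.1 in R 4.3.3 fitted a mean per group to all 9 arrays, two-sided, with eBayes and Benjamini-Hochberg adjustment. Errors are standard errors. In lists each gene was represented by its brightest probe set over all arrays. The arrays, lists and rules for named genes were chosen with earlier results of these data known. Genes were named by the smallest p among probe sets at least 1.3-fold apart without overlap (fit without the block) or of 1 sign in all 3 pairs (fit with it), up to 10 a direction, plus genes fixed by name and leading list members; Glp1r, Tac2 and other list members with values were named after these were seen. Replicate numbers were taken to pair the arrays because every same-number correlation exceeded 0.1, although the highest different-number one (0.184) did too. The pairing comes from the values, not from the labels. No control array repeated an acute one: the closest pair shared 6.34% of its values over all 28815 probe sets. The fits were checked on simulated data with independent noise on each array, so the check does not cover the correlation of same-numbered arrays. Alternatives covered the block, the arrays in the fit, tissue covariates, quantile normalization, the filter, array weights and each array left out; counts of list genes under these settings were added after the data were seen.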

Additional observations from a re-analysis of the deposited data

How the results depend on the processing

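The absence of calls rests on 3 arrays a group and held in all settings tried but 2, the fit on the 6 control and acute arrays and the fit without chronic 1 (1 probe set each, Nr4a1; leaving arrays out gave 0 to 1). The count at an unadjusted p under 0.05 was 687 with the replicate block, 984 with the block on 6 arrays, 615 with cortical and choroid plexus covariates, 286 without the filter, 60 with the filter at the median, 345 with array weights and 57 to 405 with arrays left out. The count that also asks for 1.5-fold was 34 with the block on 6 arrays, 78 with covariates, 18 with array weights, 30 without the 3 cortex-rich arrays (control 1, acute 1 and acute 2) and 4 to 61 with arrays left out; the single acute array left without those 3 is assumed to vary like the other groups. The median of the immediate early genes was -0.34 without those 3, -0.12 without the 2 arrays high in choroid plexus genes and -0.31 to -0.12 with arrays left out, below 0 in every setting, and that of the pan striatal genes stayed above 0 (0.17 to 0.45 with arrays left out). The replicate block changed no adjusted call in the fit on 9 arrays; on 6 arrays it ended the call of Nr4a1 (limma adjusted p 0.014 without it, 0.068 with it).

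Of 76 named genes, 61 kept their sign in all settings. Signs turned with covariates for Th (0.023), and with array weights for Nxph4 (0.045), Ttr (-0.13) and Pdyn (-0.10). Without the 3 cortex-rich arrays acute 3 was the single acute array. Signs then turned for Nxph3 (-0.13), Chat (-0.0056), Npas4 (0.23), Tbr1 (-0.60), Nr4a2 (-1.34), Pdyn (-0.087), Slc17a7 (-0.27) and Slc17a6 (0.31). Without the 2 high in choroid plexus genes they turned for Nxph4 (0.078), Penk (-0.0032) and Tac1 (-0.022). With arrays left out the ranges that crossed 0 were Nxph4 -0.20 to 0.11, Nxph3 -0.15 to 0.75, Gfap -0.099 to 0.28, Chat -0.018 to 0.50, Ttr -1.38 to 2.09, Tbr1 -0.69 to 1.38, Nr4a2 -0.20 to 1.83, Pdyn -0.25 to 0.24, Penk -0.0032 to 0.23, Tac1 -0.025 to 0.43, Nxph1 -0.38 to 0.082, Slc17a7 -0.20 to 1.85, Slc17a6 -1.87 to 0.13 and Th -0.63 to 0.059. The cause of these turns was not tested.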

Other observations

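Single genes with many probe sets give a repeated measurement within each array. Of 49 genes with at least 6 tested probe sets, 8 had all of them lower and 6 all higher, and 8 of these 14 are ribosomal protein genes, which have near-identical copies in the genome. Chosen after their values were seen, 4932438A13Rik had 19 of 19 probe sets lower (median -0.23, with pair medians of -0.13, -0.32 and -0.16, 3 without overlap) and Ptpn3, a tyrosine phosphatase, 12 of 12 (median -0.21). The pair medians of Ptpn3 were -0.43, 0.30 and -0.44, so the second pair ran against the other two. Probe sets of 1 gene are not replicates of the treatment.

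By gene length, the median difference ran from 0.03 in the tenth of probe sets with the shortest genes (median 2.02 kb) to -0.02 in the tenth with the longest (249 kb). It is given as a description. Adding probe sets with several symbols or none (19966 tested in all) left 0 past the threshold (limma, smallest adjusted p 0.152), with 69 of the added ones at an unadjusted p under 0.05.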
